A study of Rattus norvegicus with 6 samples.

Results

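The miR-130 and miR-301 family was followed in the small RNA of rat lung after ischemia reperfusion (IR). The members were the miRNA names of the deposited table built on miR-130a, miR-130b, miR-301a or miR-301b, with both arms of each hairpin. They came to 8 of the 693 names in the table, from 4 hairpins. The lungs came from male Sprague Dawley rats of 7 to 8 weeks. In the IR group (n = 3) the left hilum was clamped for 45 min and blood flow was then restored, and in the sham group (n = 3) the chest was opened without clamping. The sources used here do not give how long reperfusion lasted. A part of the dissected lung tissue, unsorted, was sequenced with 1 library per sample. The study describes samples of one group as biological replicates, and they were taken as separate animals.

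A miRNA hairpin is cut into a short duplex, and its 5p or 3p strand is loaded into the silencing complex, where bases 2 to 8, the seed, select the target mRNAs. The 3p strands of the miR-130 and miR-301 family share a seed and are known in the pulmonary vasculature for repression of the nuclear receptor PPARγ. In pulmonary hypertension the family acts through PPARγ on further miRNAs, miR-204 in smooth muscle, and miR-322 (miR-424 in humans) and miR-503 in endothelium. The miR-130b and miR-301b hairpins lie in one cluster, and miR-301a lies within the gene Ska2.

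The mature sequences show which members can act on the same targets and which could be confused in sequencing. RefSeq (GRCr8) held 7 of the 8 names. It lacked miR-301a-3p, which is therefore not in the sequence comparisons and seed counts below. The sequences are written 5′ to 3′, with the seed in capitals.
rno-miR-130a-3p: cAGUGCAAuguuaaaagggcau
rno-miR-130b-3p: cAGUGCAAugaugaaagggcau
rno-miR-301b-3p: cAGUGCAAugguauugucaaagc
rno-miR-130a-5p: gCUCUUUUcacauugugcuacu
rno-miR-130b-5p: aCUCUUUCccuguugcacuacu
rno-miR-301a-5p: gCUCUGACuuuauugcacuac
rno-miR-301b-5p: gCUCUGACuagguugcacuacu
The 3 printed 3p strands carry the seed AGUGCAA, which was found in 3 of the mature rat names in RefSeq (also 693, 0.433%). The 5p strands have other seeds. CUCUGAC is shared by miR-301a-5p and miR-301b-5p, and those of miR-130a-5p and miR-130b-5p were found in no other name. miR-130b-3p differs from miR-130a-3p at 2 of 22 bases, U11A and A13G, counted from the 5′ end. The first 10 bases are common to miR-130a-3p, miR-130b-3p and miR-301b-3p.

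In GRCr8 the hairpin of miR-130a lies at chr3:90229228-90229315 on the minus strand, outside protein-coding genes, with Ypel4 and Serping1 as the nearest on either side. That of miR-301a lies at chr10:72422599-72422698 on the plus strand, within the spans of Ska2 and Prr11. Those of miR-301b (chr11:97384033-97384110) and miR-130b (chr11:97384380-97384461) lie on the plus strand with 269 bases between them, within the span of 2610318N02Rikl. The spans were not resolved into exons and introns. The hairpin of miR-3590 lies on the opposite strand to that of miR-130a. miR-3590-5p is complementary to 21 bases of miR-130a-3p, and its counts were identical to those of miR-130a-3p in all 6 libraries. The counts of miR-3590-3p and miR-130a-5p differed by at most 1 read. The same reads are therefore listed under both names, and the table does not tell which strand they came from. The other 4 members with a mean of at least 5 reads (miR-130b-3p, miR-130b-5p, miR-301a-3p and miR-301a-5p) had no name with matching counts, within 5% or 2 reads in every library.

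The libraries held 3775663 to 11248166 reads of listed miRNAs, and 3 reads correspond to 0.267 to 0.795 TPM, the reads per 1000000 listed reads. miR-21-5p took 24.2% of the reads of sham replicate 3 and 9.66% to 13.5% of the others. Levels are given below as counts per 1000000 reads after TMM scaling (normalised CPM), and changes as log2 fold changes of IR against sham from edgeR's quasi-likelihood test. The test covered the 418 miRNAs with enough reads, and a Benjamini-Hochberg adjusted p under 0.05 over these was called.

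No member was called after IR. Of the 8 members 6 had enough reads for the test, and edgeR's quasi-likelihood test called 0 of them, against 10.5% of all 418 tested miRNAs called in either direction and 2.63% called as lower. The split of the calls depended on scaling, with 11 of 44 lower here and 23 of 56 when library totals without miR-21-5p and miR-143-3p were used, and on the test, with 24 of 66 lower by edgeR's likelihood ratio test and 26 of 69 by DESeq2. The cluster member miR-130b stood nearest to a call. Its miR-130b-5p was 2.00-fold lower after IR, and both its arms had every IR library below every sham library, which holds for 2 of the 6 tested members and for 16.7% of all tested miRNAs. However, miR-130b-3p lay under the filter's level in every IR library and was tested through its sham libraries alone. The gap of miR-130b-3p is therefore partly built in. The most abundant member, miR-130a-3p, was at 137 ± 37.4 normalised CPM (SD, n = 3) in sham and at 112 ± 12.4 (SD, n = 3) after IR, with overlapping groups. With other tests 0 members were called by DESeq2, limma-voom or limma-trend and 1, miR-130b-5p, by edgeR's likelihood ratio test. Over all tested miRNAs DESeq2 called 69 of 505, limma-voom 40 of 418, limma-trend 50 of 418 and the likelihood ratio test 66 of 418.

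**Figure D1:**
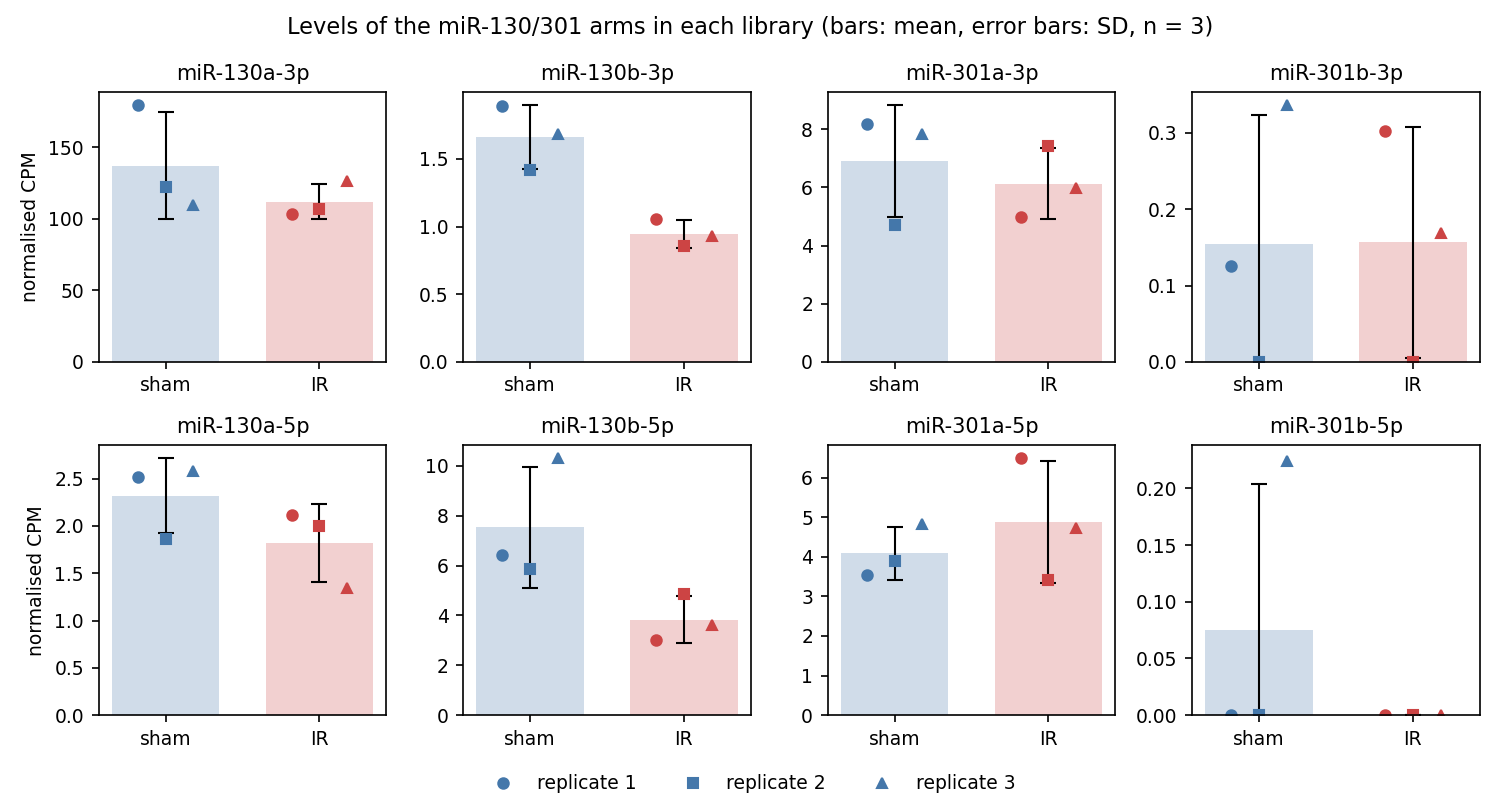
Normalised CPM (vertical axis, a separate linear scale for each panel) of the 8 miR-130 and miR-301 arms in the sham (blue) and IR (red) libraries. Bars are group means, error bars the SD (n = 3) and symbols the replicates, and the symbols of the groups do not overlap for miR-130b-3p and miR-130b-5p.

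By mean level miR-130a-3p ranked 149 among the 693 names, followed by miR-301a-3p (305), miR-130b-5p (313), miR-301a-5p (327), miR-130a-5p (381), miR-130b-3p (405), miR-301b-3p (550) and miR-301b-5p (651). miR-130a-3p lay above every other member in each of the 6 libraries. The ranges over the 6 libraries of miR-301a-3p, miR-130b-5p and miR-301a-5p overlapped, as did those of miR-130a-5p and miR-130b-3p, and those of both miR-301b arms, so that the order within these groups is within the spread. Adapter ligation can favour some miRNAs over others, so that levels of different miRNAs are less sure than one miRNA's change between groups.

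Among the strands with the shared seed, nearly all reads were miR-130a-3p. It made up 94.1% of the 4023 3p reads of the family in sham (95% exact interval 93.3% to 94.8%; 91.7% to 95.2% in single libraries). After IR it made up 94.3% of 2714 (93.4% to 95.1%; 92.8% to 94.7% in single libraries). miR-301a-3p supplied 4.67% in sham and 4.79% after IR, and miR-130b-3p 1.14% and 0.774%. The intervals of miR-130a-3p overlapped between the groups. These exact (Clopper-Pearson) intervals pool the reads of a group as independent draws, so they cover counting error only and not the spread between animals. Reads carry no molecular identifiers, so that even the counting error may be understated.

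miR-130a-3p, the abundant guide strand of its hairpin, was at 179.7, 122.5 and 109.4 normalised CPM in sham replicates 1 to 3 and at 103.4, 106.6 and 126.4 in the IR replicates. Sham replicate 1 stood above the other 5 libraries, which lay within one range. The log2 fold change was -0.29 (standard error 0.22, 95% interval -0.80 to 0.22, edgeR adjusted p = 0.436), and without sham replicate 1 it was -0.07. The interval runs from 1.74-fold lower to 1.17-fold higher.

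miR-130a-5p, the passenger strand of the same hairpin, had 20, 21 and 23 reads in sham and 14, 7 and 16 after IR, or 2.52, 1.86 and 2.58 against 2.11, 1.99 and 1.35 normalised CPM. The groups overlapped, and the log2 fold change was -0.38 (standard error 0.35, adjusted p = 0.528 from edgeR). It was -0.11 without IR replicate 3, the lowest library.

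miR-130b-5p had 51, 66 and 92 reads in sham and 20, 17 and 43 after IR. In normalised CPM these were 6.43, 5.85 and 10.3 in sham and 3.02, 4.85 and 3.62 in the IR libraries. All IR libraries lay below all sham libraries, and sham replicate 3 was the highest. A gap between the groups in either direction was found for 34% of the 418 tested miRNAs. The log2 fold change was -1.0 (standard error 0.34, 95% interval -1.78 to -0.23, edgeR adjusted p = 0.0968). Among the members only miR-130b-5p had an unadjusted p under 0.05 in this test, which 26.3% of the tested miRNAs reached, and 12.2% with a lower level after IR. Without sham replicate 3, which also had the high share of miR-21-5p, the log2 fold change was -0.72 (edgeR adjusted p = 0.260).

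miR-130b-3p, which carries the family seed, had 15, 16 and 15 reads in sham and 7, 3 and 11 after IR, or 1.89, 1.42 and 1.68 against 1.06, 0.855 and 0.927 normalised CPM. The groups again did not overlap, but this arm passed the filter only through its sham libraries, so that the gap is partly built in. The log2 fold change was -0.78 (standard error 0.36, 95% interval -1.62 to 0.05, adjusted p = 0.224 from edgeR). At these counts the error of counting alone is about 25.6% of the level in a sham library and 41.9% in an IR library. Over the libraries the level varied by less, 14.2% and 10.8%.

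miR-301a-3p was at 8.19, 4.70 and 7.84 normalised CPM in sham and at 4.98, 7.41 and 5.98 after IR. The log2 fold change was -0.18 (95% interval -0.91 to 0.54, standard error 0.31). It was -0.05 without sham replicate 1 and -0.39 without sham replicate 2. The other strand, miR-301a-5p, was the one tested member above sham, with 3.53, 3.90 and 4.82 normalised CPM in sham and 6.49, 3.42 and 4.72 after IR. Its log2 fold change was 0.28 (standard error 0.32, 95% interval -0.46 to 1.02), and it was -0.01 without IR replicate 1, the highest library. The groups overlapped for either strand, and the adjusted p values were 0.721 for miR-301a-3p and 0.598 for miR-301a-5p from edgeR.

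The miR-301b arms were too low for the test. miR-301b-3p had 1, 0 and 3 reads in sham and 2, 0 and 2 after IR. The ratio of IR to sham after division by the total reads of the groups was 1.34, with a 95% exact interval of 0.249 to 7.17. miR-301b-5p had 2 reads, both in sham replicate 3, and 0 of 21324670 reads over the IR group. At this depth a difference of either arm between the groups was not detectable.

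**Figure D2:**
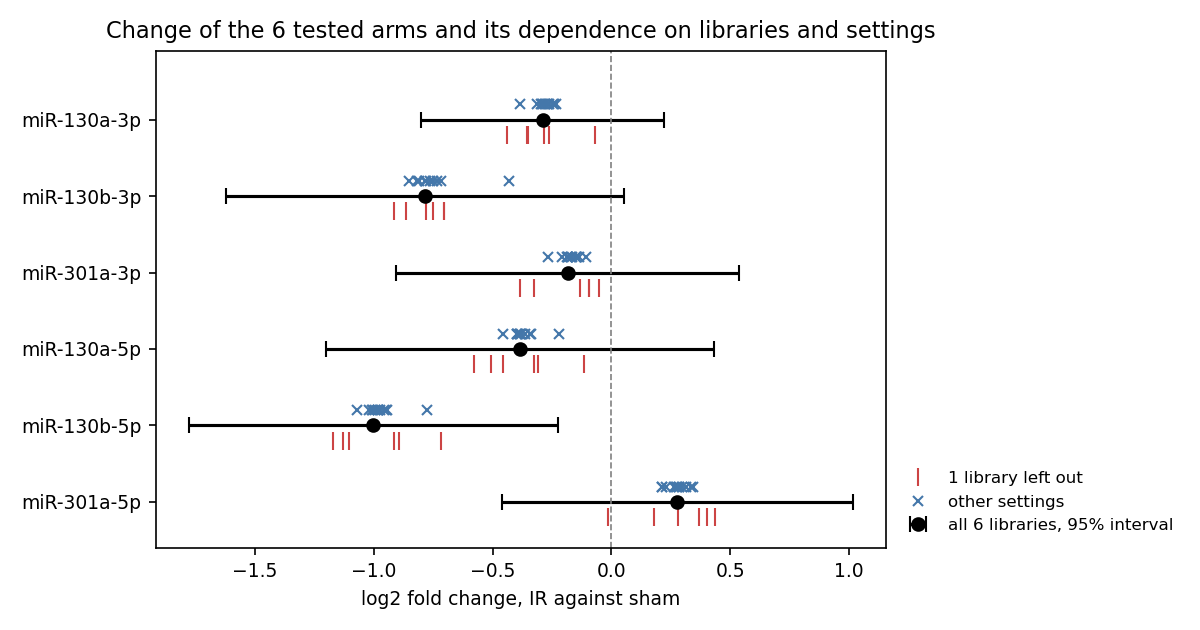
Change after IR on the log2 scale (horizontal axis, relative to sham) for the tested arms, as black points with the 95% interval from edgeR (n = 3 per group). Red ticks are fits with 1 library left out and blue crosses fits with other settings, and the interval of miR-130b-5p alone lies below 0.

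Of the 6 tested arms 5 were below sham, with a median log2 fold change of -0.34. Among all 418 tested miRNAs 51.2% were below sham and the median was -0.01. The 6 arms are not independent, as the strands of 1 hairpin come from 1 transcript. One of them, miR-130b-3p, passed the filter through its sham libraries alone.

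**Figure D3:**
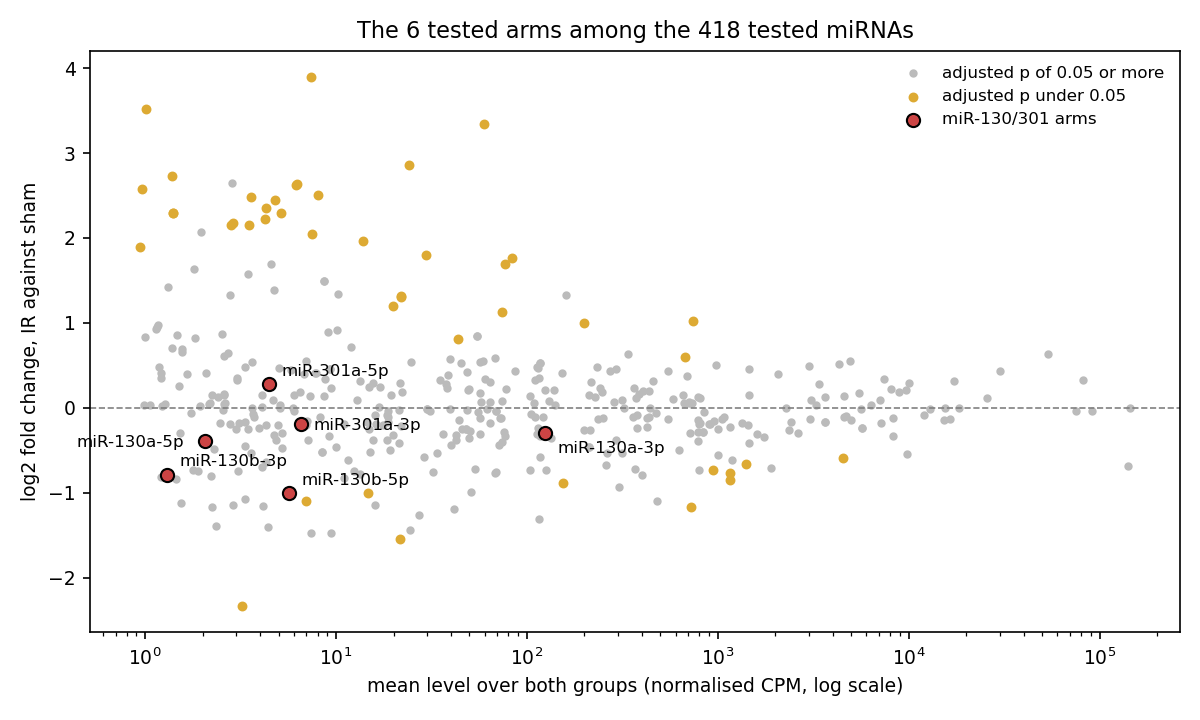
Change after IR on the log2 scale (vertical axis, relative to sham) against the mean level over both groups in normalised CPM (horizontal axis, log scale) for the 418 tested miRNAs. The 6 tested miR-130 and miR-301 arms are red, the miRNAs with an adjusted p under 0.05 yellow and the others grey, and no red point belongs to the called miRNAs.

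Ratios between members within a library do not depend on scaling. The log2 ratio of miR-130b-3p to miR-130a-3p was -6.30 ± 0.28 (SD, n = 3) in sham and -6.76 ± 0.26 (SD, n = 3) after IR, a difference of -0.46 (exact permutation test, two-sided, p = 0.2). That of miR-301a-3p to miR-130a-3p differed by 0.12 (exact permutation test, p = 0.6), and that of miR-130a-5p to miR-130a-3p by -0.07 (exact permutation test, p = 0.9). Adjusted over these 3 ratios the exact p values were 0.6, 0.9 and 0.9, and 3 against 3 libraries cannot give a p below 0.1. The ratios used 0.5 reads added to each count. Without that addition the log2 ratio of miR-130b-3p to miR-130a-3p differed by -0.55 (exact permutation test, p = 0.1). At 3 to 16 reads in a library, miR-130b-3p passed the filter through its sham libraries alone. The log2 ratio of miR-130b-5p to miR-130a-3p, computed after the values were seen and not tested, was -4.79, -4.38 and -3.40 in sham and -5.06, -4.42 and -5.11 after IR, with overlapping groups.

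The hairpins differed in which strand carried the reads. As adapter ligation can favour some miRNAs over others, the share of a strand is less sure than its change between groups. The exact intervals below cover counting error only. Reads of miR-130a are also listed under miR-3590, and their strand of origin is not known. For miR-130a the 5p arm held 1.57% of 6445 reads over the 6 libraries (95% exact interval 1.28% to 1.90%), so that the 3p arm dominated. For miR-301a it held 41.5% of 544 reads (37.4% to 45.8%). For miR-130b it held 81.2% of 356 reads (76.7% to 85.1%), the opposite of miR-130a. The ranges of the 6 libraries, 1.06% to 2.30%, 30.1% to 56.6% and 74.1% to 86.0%, did not overlap between hairpins. Between groups they did overlap, with 82.0% in sham and 79.2% after IR for miR-130b, and 38.0% and 46.1% for miR-301a. The log2 ratio of miR-130b-5p to miR-130b-3p was 2.11 ± 0.43 (SD, n = 3) in sham and 1.90 ± 0.44 (SD, n = 3) after IR, a difference of -0.21 that is within the spread of either group and was not tested. The 3p strand with the family seed held the smaller share of the miR-130b reads in these libraries.

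**Figure D4:**
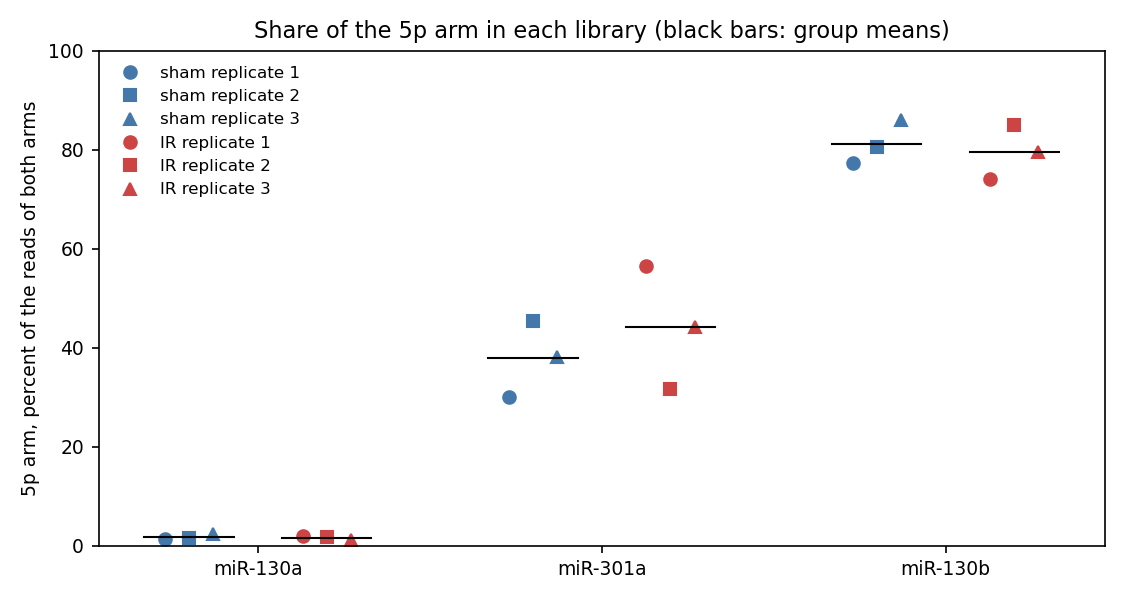
Share of the 5p arm in the reads of both arms (vertical axis, percent) for the miR-130a, miR-301a and miR-130b hairpins in the sham (blue) and IR (red) libraries. Symbols are the replicates and black bars the group means, and the hairpins lie apart while the groups within a hairpin overlap.

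Together the 8 members took 0.0215%, 0.0148% and 0.0119% of the reads of the sham libraries and 0.0128%, 0.0116% and 0.0151% of the IR libraries. The 95% exact interval of the highest was 0.0205% to 0.0226%, and that of the lowest 0.0106% to 0.0128%. The group means were 0.0161% ± 0.00495 and 0.0132% ± 0.00177 (SD, n = 3 each), a difference within the spread of sham. The difference was -0.0029 percentage points, and -0.000161 without sham replicate 1. The sum follows miR-130a-3p, which made up 86.2% of it.

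For each tested member the miRNAs with the most similar pattern over the 6 libraries were sought, by Pearson's r on log2 normalised CPM. These r values are descriptions, since the points share depth and group. Beside miR-3590-5p, which lists the same reads, miR-455-3p (r = 0.980) and miR-326-3p (0.978) were nearest to miR-130a-3p. Nearest to miR-130b-5p were miR-339-5p (0.978), miR-147 (0.972) and miR-142-3p (0.971). miR-92a-3p, which was itself called as lower (0.967), let-7d-5p and its opposite-strand name miR-3596b (0.959 each) came nearest to miR-130b-3p. For miR-301a-3p they were miR-181d-5p (0.980), miR-148b-3p (0.940) and miR-542-5p (0.918). For miR-301a-5p they were miR-21-3p (0.926), miR-3065-3p (0.922) and a predicted miRNA (0.916), and for miR-130a-5p, beside miR-3590-3p, miR-423-3p (0.912) and miR-93-3p (0.897). Between members the highest r was 0.745, for the arms of miR-130b, that between the arms of miR-130a was 0.165 and that between the arms of miR-301a was -0.480.

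Levels of marker miRNAs for the cell types of the lung were set beside those of the family. The summed level of the 3 miRNAs of myeloid cells and all leukocytes (miR-223-3p, miR-142-3p, miR-142-5p) was 1678 to 2763 normalised CPM in sham and 1267 to 1543 after IR. The mean of each was below sham, with overlapping groups for miR-223-3p and miR-142-5p and every IR library below sham for miR-142-3p, and edgeR's quasi-likelihood test called 0 of them (2 at an unadjusted p under 0.05, 1 by either DESeq2 or the likelihood ratio test). The lymphocyte miR-150-5p was at 1378 to 1502 in sham and 694 to 935 after IR, and was called as lower. Of the 4 smooth muscle and fibroblast miRNAs 1 was called as lower by edgeR's quasi-likelihood test, miR-199a-3p (log2 fold change -0.65), and 2 were called by either DESeq2 or the likelihood ratio test. miR-214-3p also had every IR library below sham (-0.73), while the abundant miR-143-3p (-0.01) and miR-145-5p (0.04) overlapped. The sum, at 134861 to 164575 in sham and 141833 to 161856 after IR, is mostly miR-143-3p. The strands of the endothelial miR-126a summed to overlapping levels, at 88065 to 111213 and 83153 to 105378. The erythroid sum was 1197 to 3906 in sham and 1451 to 2096 after IR. The groups overlapped for miR-451-5p (log2 fold change -0.20), miR-144-3p (-1.31) and miR-486 (-1.09). The sum of the 5 epithelial miRNAs of the miR-200 family was 12889 to 15882 in sham and 18672 to 19222 after IR. Every IR library lay above sham for miR-200a-3p (0.34) and miR-200b-3p (0.55), while the other epithelial miRNAs overlapped, at 0.005 to 0.28. In these lists the quasi-likelihood calls were 0 of 3 and 0 of 5 (2 at an unadjusted p under 0.05 in each, and 0 and 1 by either DESeq2 or the likelihood ratio test). Every IR library thus lay below sham for the leukocyte sum and for miR-142-3p, miR-150-5p, miR-199a-3p and miR-214-3p, and above it for the epithelial sum. Of all 418 tested miRNAs 16.7% had every IR library below sham, and 34% had a gap between the groups in either direction. An unadjusted p under 0.05 in edgeR's quasi-likelihood test was reached by 26.3%. The groups overlapped for miR-223-3p, miR-142-5p, miR-143-3p and miR-145-5p. None of these markers was at 0. In unsorted lung tissue fewer cells of a type and less miRNA per cell cannot be told apart, and the part of these cell types in the level of miR-130b was not tested.

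The miRNAs tied to the family in the pulmonary vasculature were also examined. In the PPARγ axis 8 of 10 listed miRNAs were tested, and the number called was 0 with edgeR's quasi-likelihood test, DESeq2 and limma alike, also 0 at an edgeR unadjusted p under 0.05. The median log2 fold change was 0.07, with 4 of 8 below sham. miR-204-5p, known for limiting STAT3 signalling in pulmonary artery smooth muscle, was at 54.4 normalised CPM in sham and 82.1 after IR, with overlapping groups (log2 fold change 0.59, standard error 0.33). miR-322-5p and miR-503-5p were at -0.05 and -0.07, and miR-27a-3p and miR-27b-3p, which also target PPARγ, at -0.14 and -0.01. The other tested miRNAs of this list, miR-503-3p (0.42), miR-211-5p (0.40) and miR-322-3p (0.16), were above sham with overlapping groups. miR-204-3p and miR-211-3p were too low for the test. Of 12 further miRNAs studied in pulmonary vascular disease, 0 were called by edgeR's quasi-likelihood test or DESeq2, 1 by limma-trend and 2, miR-17-5p and miR-20a-5p, had an unadjusted p under 0.05. Their median was -0.13, with 10 of 12 below sham, against -0.01 and 51.2% for all 418 tested miRNAs. An unadjusted p under 0.05 in edgeR's quasi-likelihood test was reached by 26.3% of these. Several of those below sham were near 0, namely miR-143-3p (-0.006), miR-126a-5p (-0.01), miR-126a-3p (-0.03) and miR-210-3p (-0.03).

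The seeds of miR-148a-3p (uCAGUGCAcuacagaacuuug) and miR-19b-3p (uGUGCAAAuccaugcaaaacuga), each shown for its seed in capitals, share a run of 6 bases with that of miR-130a-3p, shifted by 1 base to either side. Of the 5 tested miRNAs with these neighbouring seeds (miR-148a-3p, miR-148b-3p, miR-152-3p, miR-19a-3p and miR-19b-3p), the same counts of 0 were found in all of these tests and at an unadjusted p under 0.05. Their median log2 fold change was -0.13, with 3 of 5 below sham. miR-148a-3p, the most abundant, was at 24810 normalised CPM in sham and 26850 after IR (log2 fold change 0.11, standard error 0.19).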

How the data were processed

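Small RNA libraries of 3 IR and 3 sham lungs were made by the submitters and sequenced. Per the submitters' processing notes Bowtie was used. Not given in the sources used here were the genome build, annotation, counting tool and treatment of multiple matches. Whole read counts per miRNA and TPM values were deposited, which equal the counts per 1000000 listed reads with no length term (0 values differed by a relative 1e-06). All value columns were matched to samples by title (0 were not). In R 4.3.3, counts were filtered with filterByExpr (minimum count 10, minimum total 15), TMM-scaled and tested with edgeR 4.0.16 by quasi-likelihood. DESeq2 1.42.0 and limma 3.58.1 served as alternatives. The exact intervals and the adjustment of the ratios' p values came from scipy 1.17.1, and the exact permutation tests were enumerated in Python. The standard error is the log2 fold change divided by the square root of F. Ratios used counts plus 0.5. The fitting code was run on simulated counts, drawn with the same spread for every miRNA and with as many rises as falls. These settings are simpler than the data, so that run does not show how the tests perform on these libraries. Members, lists and tests were chosen with earlier results of these data known. The rule for named miRNAs gave 4 members in full, every miRNA of the PPARγ and seed lists, up to 4 of other lists and the 3 nearest in pattern. The members' rule takes 8 arms, so the other 4 were added. The qPCR, protein and cell experiments were not analysed here.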

Additional observations from a re-analysis of the deposited data

How the results depend on the processing

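The 6 tested members kept their direction and stayed uncalled under other scalings, filters and tests and with each library left out, where they could be fitted, with these exceptions. With edgeR's likelihood ratio test miR-130b-5p was called (log2 fold change -1.01, adjusted p = 0.0469; adjusted p over its other settings up to 0.260). miR-301a-5p ran from -0.0148 (without IR replicate 1) to 0.44 with 1 library left out. With the counts of miR-130a-3p and miR-130b-3p summed, the joint value was -0.30. A filter of 10 reads in every library left out miR-130a-5p and miR-130b-3p. With opposite-strand names counted once, chosen after seeing the data, miR-130b-5p was at -0.98 (adjusted p = 0.105 from edgeR). Of the ratios, that of miR-301a-3p to miR-130a-3p ran from -0.0699 (without sham replicate 2, and -0.0632 without IR replicate 2) to 0.38 with 1 library left out. That of miR-130a-5p to miR-130a-3p ran from -0.24 to 0.23 (0.16 without sham replicate 3, 0.23 without IR replicate 3). The causes were not tested. The number of called miRNAs was 44 of 418. It was 26 with 10 reads in every library and 69 of 505 with DESeq2, and 2 (without IR replicate 3) to 57 (without sham replicate 2) with 1 library left out. Leaving out sham replicate 3 gave 21, IR replicate 1 gave 24 and IR replicate 2 gave 17. No pairing of the libraries by replicate number was seen, though deviations from the mean of 3 libraries cannot exclude one. The deviations of same-numbered libraries correlated at -0.254, -0.381 and -0.158, and those of differently numbered libraries at -0.123 to 0.322. With the replicate block edgeR's quasi-likelihood test called 0 miRNAs (84 at an unadjusted p under 0.05), and miR-130b-5p was at -0.98 (adjusted p = 0.235). Members other than miR-130a-3p had at most 92 reads in a library. Counting error at such reads and the spread over 3 libraries per group meant that only large changes could be seen. For miR-130a-3p the spread over the sham libraries, 27.2% of the level, was above the counting error of 2.85%.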

Other observations

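The listing of the same reads under 2 names was not limited to miR-130a. RefSeq (GRCr8) places 42 pairs of listed names on opposite strands of one site, with an overlap of at least 15 bases. Among the 39 pairs with a mean of at least 5 reads, the counts were identical in all 6 libraries for 7, miR-130a-3p with miR-3590-5p among them, and differed by at most 2 reads in every library for 19. let-7d-5p and miR-3596b held 42629 and 42627 reads, and miR-183-5p and miR-3553 held 34055 and 34054. Other pairs differed widely, as miR-126a-5p with 292420 and miR-126b with 3979 reads. Names of the pairs with fewer reads took 3.08% to 3.79% of a library's reads.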
